A study of Mus musculus with 68 samples.

Results

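The alveolar septa of mice labelled with a knock-down of fibroblast growth factor 10 (Fgf10) were examined in animals that had breathed cigarette smoke for 3 months. The comparison set 3 septa arrays labelled Fgf10 knock-down with smoke against 5 septa arrays of wild-type mice with smoke, 8 of the 68 arrays of the series. The arrays were chosen by title. Knock-down smoke replicates 2, 3 and 4 were used, and replicates 1 and 5 were left out because they correlated poorly with all other septa arrays. The treatment text names Fgf10+/- animals, which carry 1 intact copy of the gene, beside wild-type and Fgfr2b+/- animals, and no sample is labelled with the last of these. Septa are the walls between air spaces, made mostly of type 1 and type 2 epithelium, capillary endothelium and fibroblasts, and they were cut from lung sections by laser. The RNA was amplified before hybridisation to Agilent arrays. Vessels were cut in the same way. Septa in room air at 3 months gave 4 knock-down and 5 wild-type arrays. After 8 months there were 5 septa arrays each of animals labelled as overexpressing Fgf10 after smoke, controls after smoke and controls in room air, with a last week of treatment with or without doxycycline. These groups are in the fit of 32 septa arrays and so share in its estimate of the spread. The labels do not give strain, sex, age, or which arrays share an animal, so the p-values measure the spread between these samples. The labels do not say what other differences the animals had.

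Fgf10 is made by mesenchymal cells of the lung, among them lipofibroblasts that lie beside type 2 cells. It acts on epithelium through the receptor splice form Fgfr2b and activates the MAP kinase cascade. Its usual transcriptional readouts are Etv4 and Etv5, transcription factors of the ETS family, and inhibitors of the Sprouty and dual-specificity phosphatase families that feed back on the cascade. The signal is required for lung branching in the embryo and maintains type 2 cells and airway progenitors in the adult. The comparison asks whether septa labelled Fgf10 knock-down differ from wild-type septa when both have been exposed to smoke.

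All values are log2 intensities as deposited, and a change is the knock-down mean minus the wild-type mean. The arrays had nearly the same distribution of values, with percentile 40 at 5.32, which served as the limit below which a probe was called dim. Type 2, type 1 and capillary markers were present on all 8 arrays. Surfactant protein C (Sftpc) read 15.90 to 15.97 on knock-down arrays and 15.83 to 15.95 on wild-type arrays, and the type 1 marker Ager 15.56 to 15.97 and 15.62 to 15.75. The endothelial junction protein Cldn5 read 13.22 to 13.57 and 12.83 to 14.24. On left-out knock-down replicate 5 these 3 genes read 4.59, 9.19 and 6.72, and on left-out replicate 1 they read 15.91, 15.74 and 12.41. The median correlation with the other septa arrays was 0.353 for replicate 1 and about 0 for replicate 5, against 0.738 to 0.941 for the other 32 septa arrays. Among the compared arrays, knock-down replicate 3 stood farthest out: the median gene lay 0.909 from the wild-type mean on it, against 0.426 on replicate 2 and 0.545 on replicate 4. Each wild-type array lay 0.489 to 0.618 from the mean of the others.

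**Figure D1:**
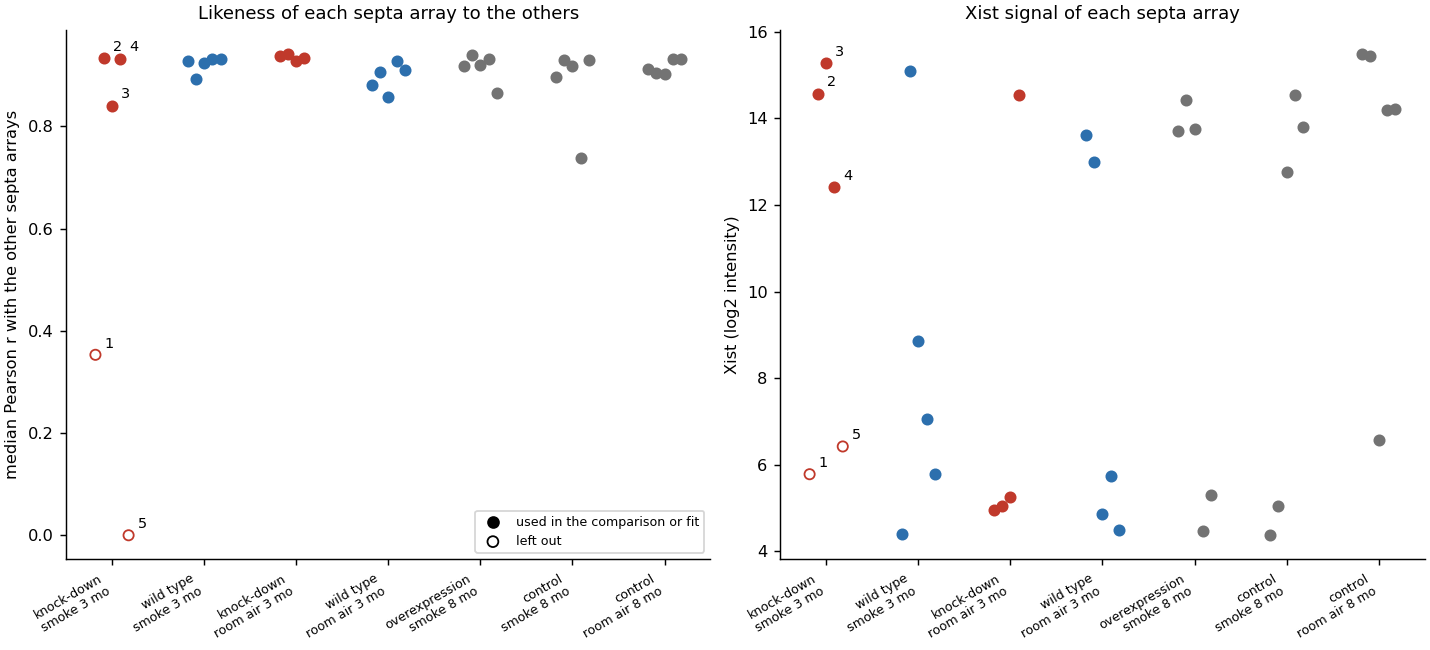
Median Pearson correlation of each septa array with the other septa arrays (left) and log2 intensity of Xist (right), by group, with the replicate number beside the knock-down smoke arrays; open circles are the 2 arrays left out. Replicates 1 and 5 lie at 0.353 and about 0, replicate 3 lies below replicates 2 and 4, and all 3 compared knock-down arrays are high for Xist.

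The groups also differed in Xist, the noncoding RNA of the inactive X chromosome, which marks female tissue. It read 14.57, 15.28 and 12.42 on the knock-down arrays and 4.39, 15.10, 8.87, 7.05 and 5.80 on the wild-type arrays. Above a level of 9.5 stood 3 of 3 knock-down smoke arrays and 1 of 5 wild-type smoke arrays. In room air 1 of the 4 knock-down arrays and 2 of the 5 wild-type arrays did. Knock-down replicate 4 also read 9.44 for the Y-linked gene Eif2s3y, and its vessel array with the same number read 12.28 for Xist and 9.59 for Eif2s3y. Wild-type smoke replicate 4 is titled wild type, while its Fgf10 expression label says knock-down. It was placed by its title, and a fit with it moved to the other group was also made.

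No gene passed the test between knock-down and wild-type septa under smoke. In limma's moderated test over 17338 genes, 0 had an adjusted p under 0.05, and the smallest adjusted p was 0.718. At an unadjusted p under 0.05 there were 893 genes, 393 higher and 500 lower, or 5.15% of those tested. A test without any difference gives 866.9 at that level. The median change over all genes was -0.07, and 45.2% of genes had a positive change. The precision was limited: the median standard error was 0.61, and the 95% interval of the median gene reached 1.24 to either side of its change. That interval is for 1 gene before adjustment over all genes.

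Among the nominal differences knock-down replicate 3 was mostly the outermost array. Of the 893 genes, 740 (82.9%) had this array farthest from the wild-type mean among the 3 knock-down arrays, against 56.7% of all tested genes. With replicate 3 left out, 305 genes (1.81%) had an unadjusted p under 0.05, and with replicate 2 or 4 left out 1536 and 1527 did. A single gene passed without replicate 2, and none without replicate 3 or 4. That gene was Phgr1, which was chosen after its values were seen, at 3.15 (limma adjusted p = 0.00395); over all 3 arrays it changed by 2.05 ± 0.54 (SE; limma adjusted p = 0.890). With the left-out replicates 1 and 5 added to the group, 1068 genes passed, 148 higher and 920 lower. In that fit 29.8% of genes had an unadjusted p under 0.05, and the median change was -0.33.

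Fgf10 itself was measured by 3 probes. The brightest probe read 8.54, 4.16 and 7.82 on the knock-down arrays, against 10.19, 7.95, 9.49, 7.08 and 7.77 on the wild-type arrays. Replicate 3 read at background, and the other knock-down arrays lay within the wild-type range. The change was -1.65 ± 0.76 (SE, n = 3 against 5; limma unadjusted p = 0.0382, adjusted p = 0.959, in the fit of genes). An exact two-sided permutation test over the arrays gave p = 0.25, where the smallest p it can give is 0.0357. Without replicate 3 the change was -0.32 (limma unadjusted p = 0.666), with array weights -0.37 and as the mean of all probes -0.46. In room air the brightest probe read 7.96, 8.33, 7.94 and 9.21 on knock-down arrays, against 7.65, 7.16, 7.54, 7.49 and 8.69 on wild-type arrays, a change of 0.65. On this probe the room air signal was thus not lower in the group labelled knock-down. In room air the second probe read 5.18, 5.42, 5.67 and 5.55, against 4.62, 4.86, 7.75, 5.5 and 6.48 on wild-type arrays. The dimmest probe read 4.38, 4.04, 4.57 and 4.3, against 3.86, 4.4, 5.61, 4.04 and 4.17. On both of these probes the knock-down arrays lay within the wild-type range.

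The second probe read 7.31, 4.33 and 4.53 on knock-down arrays and 6.30, 6.38, 5.31, 6.06 and 5.94 on wild-type arrays. Here the highest array of all was a knock-down array, and the change was -0.61 ± 0.79 (SE; exact permutation p = 0.446). The dimmest probe read 4.95, 5.87 and 4.56, against 3.77, 4.87, 3.83, 4.66 and 4.03, and lay above percentile 40 on 1 knock-down array of 3 and on none of the 5 wild-type arrays. Its change was 0.90 ± 0.35 (SE; limma unadjusted p = 0.0168 in a fit of all probes, exact permutation p = 0.0893). Adjusted over the 3 probes the exact permutation p were 0.375, 0.446 and 0.268. The probes thus differed in sign, and the sources used here do not place them relative to the targeted region. No probe passed after adjustment over all genes. In bulk samples fewer cells of a type and less RNA per cell cannot be told apart.

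With all 5 knock-down arrays the brightest probe changed by -2.68 (limma adjusted p = 0.0442 in the fit of genes). The second probe changed by 1.34 in that set, with 9.78 and 10.76 on replicates 1 and 5, above the other 8 smoke-exposed septa arrays of these groups. Replicates 1 and 5 read 4.78 and 3.77 on the brightest probe, which was dim on both.

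The receptor gene Fgfr2 read 10.11, 12.69 and 9.25 on knock-down arrays and 10.00, 9.74, 9.92, 9.50 and 9.45 on wild-type arrays. Replicate 3 stood far above wild type, while replicate 2 lay just above the wild-type range and replicate 4 just below it. The change of 0.96 had a 95% interval of -0.12 to 2.04, and without replicate 3 the change was -0.05. Its probes disagreed, with 1 of 2 in that direction. Among the ligands in the list, Fgf1 changed by -0.64, Fgf2 by 0.40, Fgf7 by 1.00 and Fgf18 by -1.05, none past the test, and Fgf9 lay at background.

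The ETS factor Etv5, the brighter of the pair of targets, read 11.86, 10.81 and 12.06 on knock-down arrays and 11.87, 11.93, 11.38, 12.73 and 12.80 on wild-type arrays. These groups overlapped, with a change of -0.56 (95% interval -1.45 to 0.32). Etv4 read 8.38, 9.24 and 8.36, against 9.45, 8.75, 8.71, 9.51 and 9.05, a change of -0.44 (95% interval -2.01 to 1.14).

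The MAP kinase phosphatase Dusp6 changed by -0.30 (95% interval -1.14 to 0.55). The Sprouty inhibitors changed by -0.47 (Spry1), -0.28 (Spry2) and -0.25 (Spry4), and Bmp4, a signal induced by Fgf10 in embryonic lung epithelium, by -0.45, with 95% intervals that all included 0. Spry1 was the steadiest of them on knock-down arrays only, with an SD of 0.16, against 0.47 on wild-type arrays. It read 10.20, 10.48 and 10.48 on knock-down arrays and 10.69, 10.47, 10.58, 11.65 and 10.89 on wild-type arrays. Nos2, the inducible nitric oxide synthase that has been tied to smoke-induced emphysema in mice, read 7.12, 7.59 and 8.55, against 8.20, 7.15, 6.72, 9.01 and 8.88, a change of -0.24 (95% interval -1.57 to 1.10).

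Of the 28 tested genes in the list of Fgf10 signalling and targets, 0 passed, and at an unadjusted p under 0.05 0 were higher and 2 lower, against 2.27% and 2.88% of all genes. The 2 were Fgf10 and the phosphatase Dusp4. Dusp4 read 12.02, 3.90 and 10.37 on knock-down arrays and 12.05, 12.61, 12.33, 10.07 and 11.12 on wild-type arrays. Replicates 2 and 4 lay within the wild-type range, and replicate 3 was at background. The change was -2.87 ± 1.01 (SE; limma adjusted p = 0.959). The median change of the list was -0.28 over the 3 arrays and -0.11 with replicate 3 left out, beside -0.07 and 0.01 for all genes. The list's mean level was 9.30, 8.68 and 9.23 on the knock-down arrays and 9.16 to 9.45 on the wild-type arrays.

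**Figure D2:**
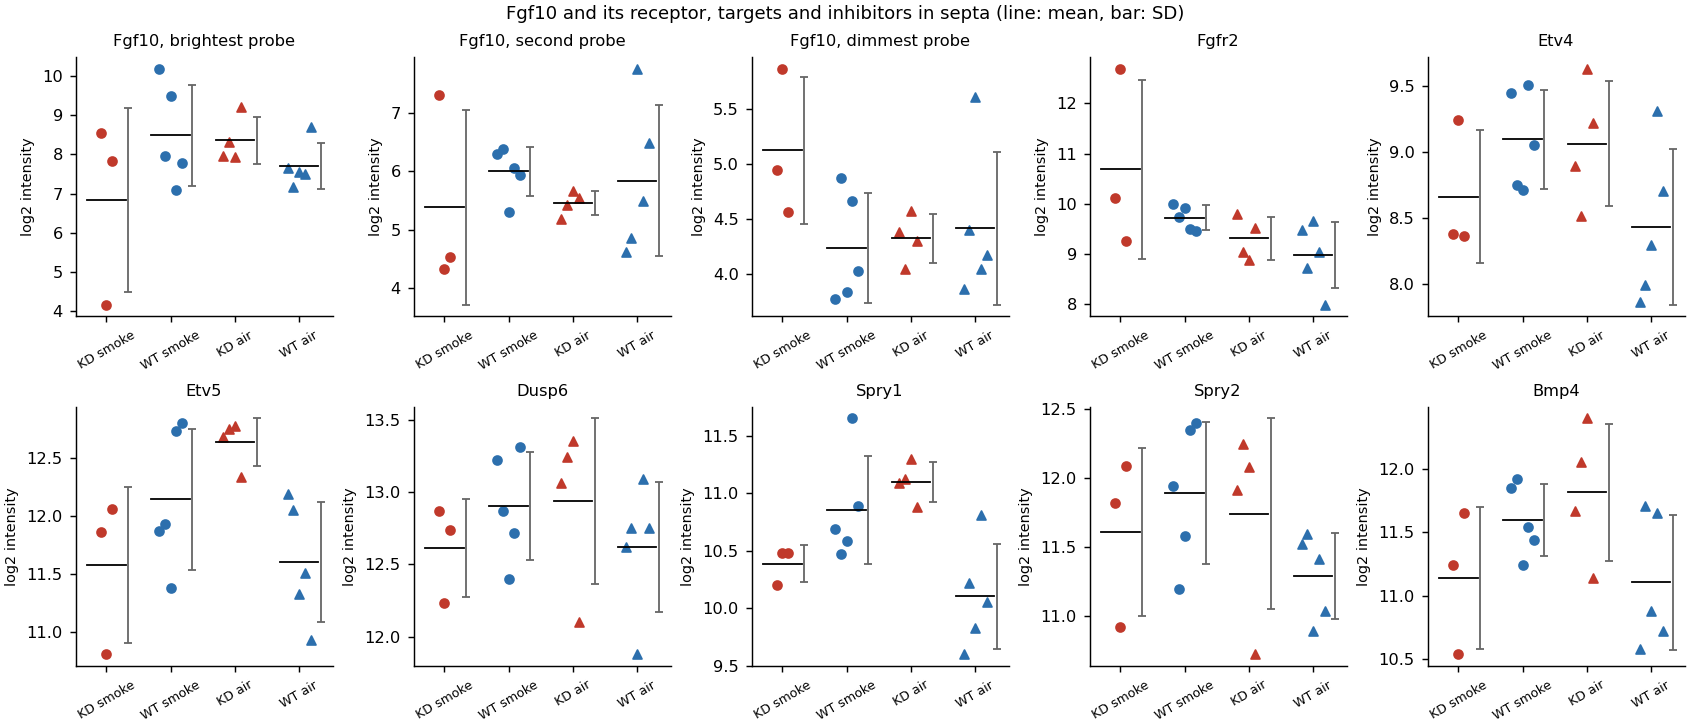
Log2 intensity of the 3 Fgf10 probes and of Fgfr2, Etv4, Etv5, Dusp6, Spry1, Spry2 and Bmp4 on each septa array after 3 months, for knock-down (KD, red) and wild type (WT, blue) under smoke (circles) and in room air (triangles); each panel has its own axis, lines are means and bars are SD (n = 3, 5, 4 and 5). The smoke groups overlap in every panel, and 1 knock-down smoke array sits apart at 4.16 for Fgf10 and at 12.69 for Fgfr2.

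In room air the knock-down group stood above its wild type for 24 of the 28 genes of the Fgf10 list, against 57.3% of all genes. The median change was 0.54, against 0.11 for all genes. Some other lists were positive as often, with 18 of 20 type 2 and 12 of 14 club and secretory genes, while 2 of 16 ribosomal protein genes were. Under smoke the Fgf10 list levels of knock-down replicates 2 and 4 lay inside the wild-type range, and replicate 3 alone lay below it. The difference of the knock-down effect between smoke and room air was negative for 20 of 28 genes, with a median of -0.78, beside 57.4% negative and a median of -0.16 over all genes. At an unadjusted p under 0.05 it was lower for 5 and higher for 1 of the 28, against 5.09% and 2.14% of all genes. Other lists had a negative difference as often, with 18 of 20 type 2, 19 of 21 VEGF and angiopoietin and 16 of 19 capillary genes. None of the 28 passed, and of all 17338 genes 0 passed this test of the difference (limma; smallest adjusted p = 0.214), with 1253 (7.23%) at an unadjusted p under 0.05.

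The 5 were Fgf10, Dusp4, Etv5, Spry1 and Il17rd, an inhibitor of FGF signalling, and the 1 was the ETS factor Etv1. Etv5 was higher in room air by 1.03 and lower under smoke, a difference of -1.59 ± 0.59 (SE; limma adjusted p = 0.661). For Spry1 the difference was -1.46 ± 0.56 and for Il17rd -4.03 ± 1.42 (SE; limma adjusted p = 0.661 for both). Il17rd was higher in room air by 2.34. Under smoke it read 11.62, 6.98 and 11.33 on knock-down arrays, against 11.29 to 12.15 on wild-type arrays, so that only replicate 3 lay outside the wild-type range. The difference in Etv1 ran the other way, at 1.71 ± 0.75 (SE; limma adjusted p = 0.686).

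Cxcl5, a chemokine that draws neutrophils and is made by alveolar epithelium, had the largest difference of the 24 genes named by smallest p among those whose groups did not overlap. It read 6.84, 6.66 and 8.51 on the knock-down smoke arrays, against 12.59, 8.92, 12.43, 9.89 and 10.66 on the wild-type smoke arrays. All 3 knock-down arrays lay below all 5 wild-type arrays, and the change was -3.56 ± 0.99 (SE, n = 3 against 5; limma unadjusted p = 0.00116, adjusted p = 0.890). Replicate 3 was close to replicate 2 here, unlike for most genes of this kind. Left-out knock-down replicate 1 read 5.28, and left-out replicate 5 read 13.42, above every wild-type smoke array. With all 5 knock-down arrays the change was -2.75 (limma adjusted p = 0.0844). The Xist-high wild-type array had the lowest wild-type reading, 8.92. With a covariate for high Xist the change was -3.67 (limma adjusted p = 0.543), and without replicate 3 it was -3.22 (limma unadjusted p = 0.00879). Both fits reuse arrays by which the gene was chosen.

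In room air Cxcl5 was at or near background in both genotypes, 5.18 to 5.66 on 4 knock-down arrays and 4.48 to 6.91 on 5 wild-type arrays. The difference of the knock-down effect between smoke and room air was -3.79 ± 1.35 (SE; limma unadjusted p = 0.00856, adjusted p = 0.661). It contains the smoke contrast by which Cxcl5 was chosen, so its unadjusted p is not independent of that choice. In vessels under smoke Cxcl5 changed by -2.18 ± 1.06 (SE, n = 4 against 5; limma adjusted p = 0.189). In the neutrophil list 0 of 20 tested genes had an unadjusted p under 0.05. Of these genes 9 had a positive and 11 a negative change, and 1 was lower without overlap between the groups. The list had mean levels of 10.67, 8.79 and 9.87 on knock-down arrays and 8.74 to 11.20 on wild-type arrays.

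Cxcl5 was also 1 of 10 genes past the threshold for smoke against room air in wild-type septa (0.0577% of genes tested), and 2 genes, Mreg and Marco, passed for smoke in knock-down septa (0.0115%). Those comparisons share arrays with the one described here, so only the values are set side by side. Marco, a scavenger receptor of alveolar macrophages, read 14.53, 14.03 and 14.22 on knock-down smoke arrays and 13.56, 14.69, 14.51, 14.03 and 14.07 on wild-type smoke arrays. Its change between genotypes was 0.09 (95% interval -1.49 to 1.67), and in room air it read 8.28 to 10.31 on knock-down and 9.06 to 12.53 on wild-type arrays. The smoke readings of both genotypes overlapped, and all lay above all room air readings.

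Gpnmb, a glycoprotein of lipid-laden macrophages, read 8.70, 9.06 and 9.15 on knock-down smoke arrays and 7.87, 8.98, 7.77, 8.91 and 9.48 on wild-type smoke arrays, a change of 0.37 (95% interval -1.16 to 1.89). Plet1, a surface protein of epithelium and macrophages, read 13.38, 13.65 and 13.25, against 12.14, 13.74, 13.35, 12.72 and 14.10, a change of 0.22 (95% interval -1.09 to 1.53). Lrp12, of the LDL receptor family, changed by 0.05 and Slco2b1, a transporter of organic anions, by 1.06, neither past the test. The clock-controlled genes Dbp and Per3 changed by -0.16 and -0.26, and the zinc finger gene Zfp516 by -0.95. In the list of smoke-exposed and lipid-laden macrophage genes, 0 of 20 had an unadjusted p under 0.05 in either direction, with a median of -0.25 over 3 arrays and 0.05 without replicate 3.

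Mreg, which encodes melanoregulin, read 9.97, 10.08 and 10.88 on knock-down smoke arrays and 8.65, 9.99, 9.83, 9.11 and 9.86 on wild-type smoke arrays, and the change of 0.82 did not pass. In room air it read 7.66 to 7.94 on knock-down arrays and 8.46 to 9.55 on wild-type arrays. Rprl2, a noncoding RNA related to the RNA of ribonuclease P, was lowered by smoke in wild type (limma adjusted p = 0.0387). It read 7.51, 10.30 and 8.64 on knock-down smoke arrays and 5.98, 5.42, 5.29, 5.87 and 6.72 on wild-type smoke arrays, all knock-down arrays above all wild-type arrays, a change of 2.96 ± 0.70 (SE; limma adjusted p = 0.718). The room air readings were 6.47 to 7.74 on knock-down and 6.76 to 10.47 on wild-type arrays. Its difference between smoke and room air, 4.98 ± 0.95, had the smallest adjusted p of all genes, 0.214 (limma).

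**Figure D3:**
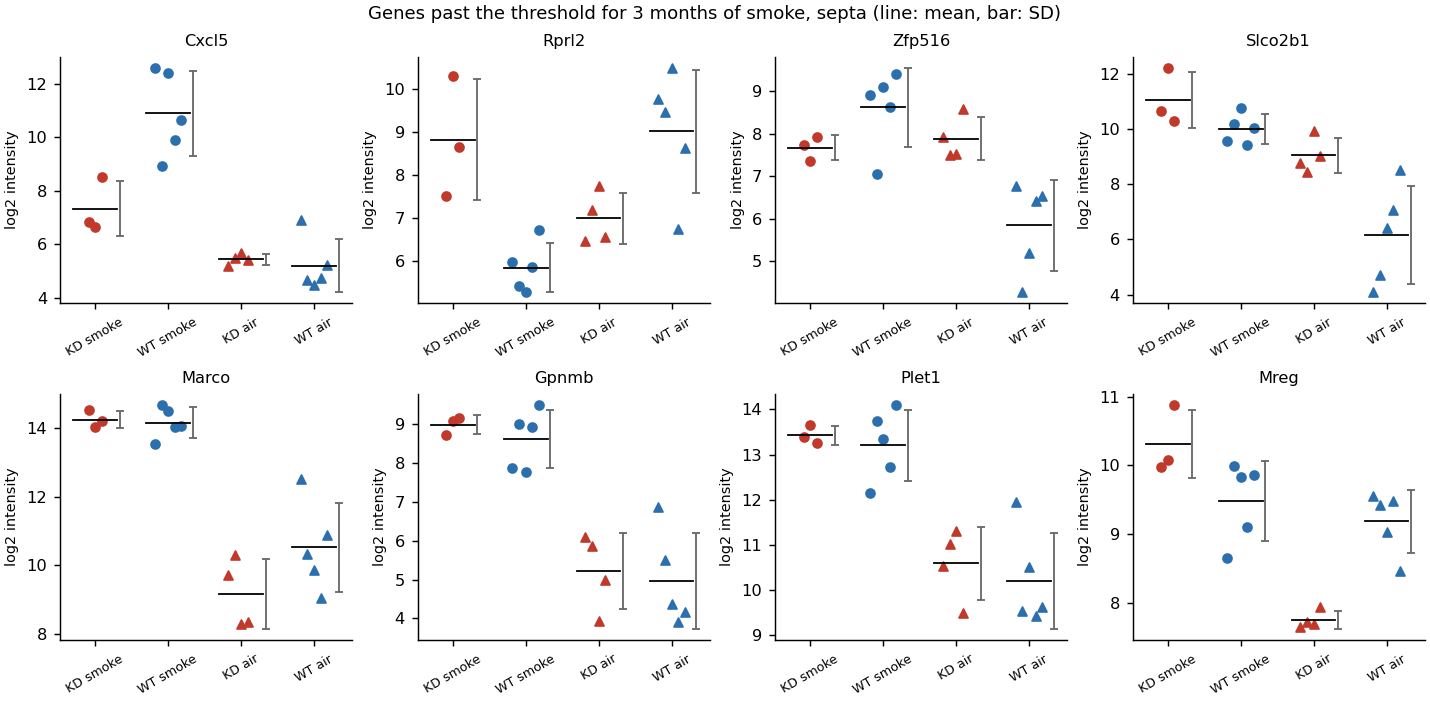
Log2 intensity of Cxcl5, Rprl2, Zfp516, Slco2b1, Marco, Gpnmb, Plet1 and Mreg, 8 of the 11 genes past the threshold for 3 months of smoke in either genotype, on each septa array of knock-down (KD, red) and wild type (WT, blue) under smoke (circles) and in room air (triangles); lines are means and bars are SD (n = 3, 5, 4 and 5). For Marco, Gpnmb and Plet1 the smoke groups overlap and lie above all room air arrays, while the knock-down smoke arrays lie below the wild-type smoke arrays for Cxcl5 and above them for Rprl2.

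Genes that 8 months of smoke altered in septa come from groups outside the 8 compared arrays, although the arrays of those groups enter the shared estimate of the spread. Of the 112 that were higher after 8 months of smoke (0.646% of genes tested), 59 had a positive change in knock-down against wild type at 3 months (median 0.04). Of the 61 that were lower (0.352%), 21 had a positive change (median -0.18). Over all genes 45.2% were positive with a median of -0.07.

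The groups did not overlap, with a change of at least 1, for 163 genes higher on the knock-down arrays (0.94% of genes tested) and 123 lower (0.709%). The 12 genes of smallest p in each direction among those bright enough in the higher group are described next; none passed, and 2 predicted genes higher and 3 lower were passed over. Limma unadjusted p ran from 4.64e-05 to 0.00249 for the higher set and from 0.000286 to 0.00661 for the lower set, with adjusted p of 0.718 or more. Since non-overlap chose them, their separation is a description. Cyp3a13 and Etaa1os, which were dim on all 5 wild-type arrays, entered the test only through the knock-down arrays. Ttpa, above percentile 40 on 1 of 5 wild-type arrays, also needed the knock-down arrays to enter. So did Zfp780b, Elmod2 and H2ac6, above it on 2 of 5.

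The higher set held the cytochrome P450 gene Cyp3a13, the secreted growth factor gene Clec11a, the zinc finger gene Zfp780b, the transcript Etaa1os from the strand opposite Etaa1, Rprl2 and the vitamin E transfer protein gene Ttpa. It also held Eef1e1, of the aminoacyl-tRNA synthetase complex, Elmod2, an activator of ARL GTPases, Lsmem2, a membrane protein, Mrpl9, of the mitochondrial ribosome, Sra1, a coregulator of steroid receptors, and the histone gene H2ac6. Changes ran from 1.46 to 2.96. Cyp3a13 read 5.64, 9.79 and 6.58 on knock-down arrays and 4.16, 4.23, 5.07, 4.37 and 4.30 on wild-type arrays, so that wild type was dim on every array and the change of 2.91 ± 0.61 (SE) has no exact size. Clec11a read 6.65, 9.53 and 7.74, against 4.43, 5.89, 5.71, 5.97 and 6.20, a change of 2.33 ± 0.54 (SE).

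Replicate 3 was the farthest array for 9 of these 12 genes, among them both of the last named. The exceptions were Etaa1os, Elmod2 and H2ac6. Etaa1os read 7.25, 6.25 and 5.87 on knock-down arrays and 4.83, 4.93, 3.85, 3.80 and 4.58 on wild-type arrays, a change of 2.06 ± 0.49 (SE; limma adjusted p = 0.718) that has no exact size, since wild type was dim on every array. Its neighbour Etaa1, chosen after its values were seen, changed by 1.59 ± 0.52 (SE; limma adjusted p = 0.959), and the sources used here do not say whether labelling kept the strands apart. Elmod2 read 6.87, 6.0 and 6.81, against 5.76, 4.61, 5.33, 4.38 and 4.95, a change of 1.55 ± 0.42 (SE). Its wild-type readings were above percentile 40 on 2 of 5 arrays, so this change has no exact size. Mrpl9 had 1 of its 3 probes in the direction given.

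The lower set held Epb41l5, a FERM-domain protein of epithelial junctions, Slc7a1, a transporter of cationic amino acids, Enpp2 (autotaxin, which makes lysophosphatidic acid), Cxcl5, the zinc finger gene Zmym5 and Bcar1, an adaptor at focal adhesions. It also held Cdk8, a kinase of the Mediator complex, Arhgef10l, the receptor Gprc5c, Cds2, of phosphatidylinositol synthesis, the Schlafen gene Slfn5 and Fbxl14, of a ubiquitin ligase. Changes ran from -3.56 to -1.23, and replicate 3 was the farthest array for all 12. Slc7a1 read 7.91, 5.65 and 8.33 on knock-down arrays and 9.27, 9.55, 9.36, 9.54 and 9.56 on wild-type arrays. All 3 knock-down arrays lay below a narrow wild-type group, and the change was -2.16 ± 0.57 (SE; limma adjusted p = 0.890), and -1.34 without replicate 3.

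Cds2 read 13.05, 11.75 and 13.05 on knock-down arrays and 13.82, 14.17, 13.86, 14.02 and 13.37 on wild-type arrays, a change of -1.23 ± 0.39 (SE). As the mean of all probes the change of Cds2 was -0.27, and 2 of its 3 probes were lower. In Arhgef10l the picture was another: replicate 3 read 4.77 while replicates 2 and 4 read 12.18 and 12.19, against 12.27 to 13.19 in wild type. Enpp2, a marker of lipofibroblasts among other cells, read 10.78, 6.25 and 10.01, against 11.33, 11.27, 11.01, 11.24 and 10.87, a change of -2.13 ± 0.59 (SE) with all 3 of its probes in that direction. Without replicate 3 the change of Enpp2 was -0.74 (limma unadjusted p = 0.0972), with array weights -0.76 and as the mean of all probes -1.0. In the lower set, 6 of 12 genes had all probes on one side, 3 of those with a single probe. With replicate 3 left out, 22 of the 24 genes stayed in the test, and 11 had an unadjusted p under 0.05. Of all genes in that fit 1.81% did. The 24 genes were chosen on arrays that include replicates 2 and 4, so this count is a description only.

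**Figure D4:**
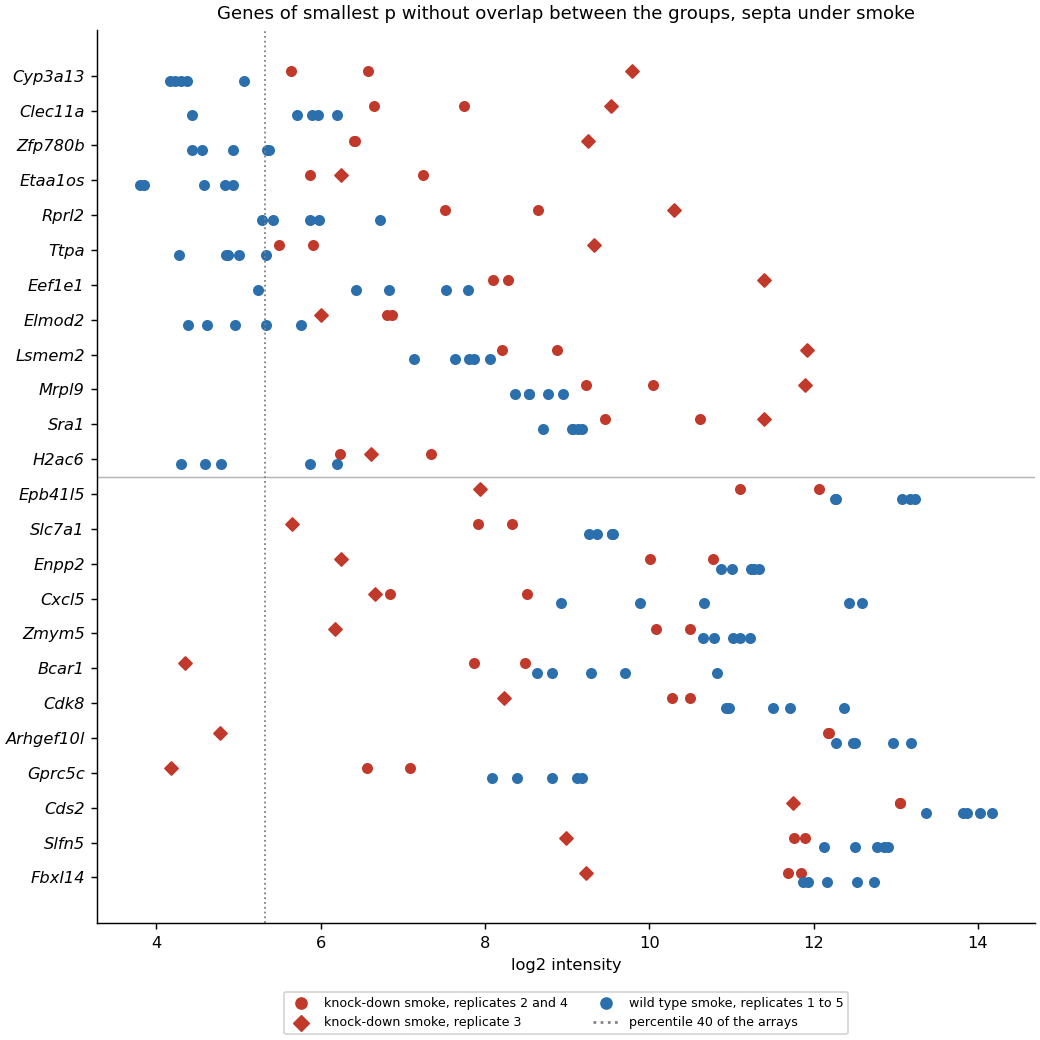
Log2 intensity of the 12 genes higher and the 12 genes lower on knock-down arrays, with the smallest p among genes without overlap, on each smoke-exposed septa array; red circles are knock-down replicates 2 and 4, red diamonds replicate 3, blue circles wild type, and the dotted line is percentile 40. The diamond is the farthest knock-down point for 9 of 12 genes in the upper block and for 12 of 12 in the lower block.

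Epithelial and capillary genes were described through lists, none of which held a gene past the test. The counts at an unadjusted p under 0.05 in every list stand beside 2.27% of all genes higher and 2.88% lower. In the type 2 list 1 of 20 tested genes was higher at an unadjusted p under 0.05 and 0 lower, with a median change of -0.17 and of -0.01 without replicate 3. The 1 gene was surfactant protein B (Sftpb), which read 12.23, 12.77 and 12.87 on knock-down arrays and 10.69, 11.78, 11.56, 12.33 and 12.27 on wild-type arrays, overlapping at 12.23 and 12.33. In the type 1 list 2 of 18 were lower, against 2.88% of all genes. These were the anchoring protein gene Akap5, at 13.80, 13.47 and 13.74 against 14.54, 14.63, 14.47, 14.39 and 14.23 (change -0.78 ± 0.34, SE), and the basement membrane collagen gene Col4a4, at -1.50 ± 0.56 (SE). Akap5 was among the steadier differences, with all knock-down arrays within 0.4 of each other in log2 intensity.

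In the capillary list 2 of 19 genes were lower at that level and 0 higher. They were Kit, a receptor of general capillary cells, at -1.36 ± 0.60 (SE), and Aplnr, the apelin receptor, at -1.34 ± 0.62 (SE). The list's median was -0.37, and -0.25 without replicate 3, with 15 of 19 genes negative against 54.8% of all genes. Its mean level was 12.13, 11.35 and 11.62 on knock-down arrays and 12.02 to 12.27 on wild-type arrays. In the VEGF and angiopoietin list, which shares Aplnr, 2 of 21 were lower and 16 of 21 negative. The other of the 2 was Angpt2, a ligand of the Tie2 receptor that loosens vessel walls, at 7.44, 7.54 and 7.40 on knock-down arrays and 8.02, 10.07, 8.57, 9.74 and 9.47 on wild-type arrays. For Angpt2 the knock-down arrays agreed within 0.2 of each other, all below wild type, and the change was -1.72 ± 0.67 (SE; limma adjusted p = 0.959).

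Among integrins and laminins 3 of 23 genes were lower and 0 higher at that level, against 2.88% and 2.27% of all genes, with a median of -0.44, and of -0.16 without replicate 3. Itgb6, the epithelial integrin subunit that activates TGF beta, read 6.44, 4.73 and 7.32 on knock-down arrays and 9.41, 7.25, 9.52, 8.44 and 7.62 on wild-type arrays (change -2.28 ± 0.63, SE; limma adjusted p = 0.890). The groups touched at 7.32 and 7.25. Itgb3 and Itga9 changed by -1.93 and -1.63, both with their lowest reading on replicate 3. In the elastic fibre list 0 of 19 and in the list of matrix metalloproteinases and inhibitors 0 of 23 had an unadjusted p under 0.05, and in the collagen list 2 of 22 were lower, Col4a4 and Col5a1.

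Airway genes were uneven between wild-type arrays. In the club and secretory list 4 of 14 genes were higher at an unadjusted p under 0.05 (Scgb1a1, Cyp2f2, Muc5b and Reg3g) and 0 lower, against 2.27% and 2.88% of all genes, with a median of 0.20. Scgb1a1, the club cell secretory protein, read 15.97, 15.97 and 15.96 on knock-down arrays, at the top of the scale, and 13.83, 15.89, 13.70, 15.21 and 15.97 on wild-type arrays. Cyp2f2, a cytochrome P450 of club cells, read 12.60, 12.96 and 14.06, against 7.07, 12.35, 8.39, 11.02 and 14.34. Reg3g read 4.23, 9.75 and 5.86 on knock-down arrays, against 4.31, 4.03, 4.01, 4.6 and 6.15. Above percentile 40 on 1 of 5 wild-type arrays, Reg3g needed the knock-down arrays to enter the test, and its change has no exact size. The list's mean level was 10.69, 11.65 and 11.34 on knock-down arrays and 9.97 to 11.60 on wild-type arrays, and the part of airway tissue in the dissected septa was not tested.

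Cells that differ with blood or inflammation varied by array. Hbb-b1, a beta globin, read 14.57, 11.34 and 12.50 on knock-down arrays and 6.39, 4.81, 10.51, 9.46 and 12.97 on wild-type arrays, and the list of red cell and platelet genes had mean levels of 9.86, 7.75 and 9.42 against 6.12 to 10.17. The lists of T and NK cells, B and plasma cells, dendritic cells, mast cells and MHC class II genes each had their lowest mean level of the 8 arrays on knock-down replicate 3. This was not particular to immune lists. The type 1, type 2, capillary, lymphatic, lipofibroblast, collagen and integrin lists were also lowest on that array. The T and NK cell list had mean levels of 8.75, 7.12 and 8.72 on knock-down arrays and 7.94 to 8.40 on wild-type arrays. Its median change was -0.12 with replicate 3 and 0.57 without it. In the alveolar macrophage list 1 of 18 genes was higher and 0 lower, with medians of 0.15 and 0.61. The 1 gene was Cidec, a lipid droplet protein, at 8.76, 6.74 and 8.03 on knock-down arrays and 4.92, 4.43, 4.96, 5.71 and 5.70 on wild-type arrays, a change of 2.70 ± 0.93 (SE; limma adjusted p = 0.959). Cidec did not overlap between the groups, and replicate 3 was its lowest knock-down array. Wild type was dim on 3 of 5 arrays, so the change has no exact size, and Cidec needed the knock-down arrays to enter the test.

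Of the chemokine and cytokine list 3 of 30 genes were lower and 0 higher, namely Cxcl5, Ccl22, which draws regulatory T cells, and Csf1, the macrophage growth factor. Csf1 changed by -1.83 and Ccl22 by -1.39, and Ccl22 was dim on all 3 knock-down arrays and on 2 of 5 wild-type arrays, so its change has no exact size. Of all genes 2.27% were higher and 2.88% lower at that level. The list's median was -0.23 with replicate 3 and 0.21 without it. Aryl hydrocarbon receptor targets, which tobacco smoke induces, were positive in 7 of 7 tested genes with none at an unadjusted p under 0.05 (median 0.34, and 0.98 without replicate 3), against 45.2% positive over all genes, and their mean level was 7.06, 6.68 and 7.94 on knock-down arrays and 6.51 to 7.02 on wild-type arrays. In the NRF2 list of antioxidant genes 1 of 21 was higher, Slc7a11, the cystine transporter, at 6.14, 10.64 and 5.52 against 4.30, 4.52, 3.73, 5.32 and 6.08. Only replicate 3 lay clear of wild type by more than 1 unit, and the change was 2.65 ± 0.93 (SE). Wild type was above percentile 40 on 1 of 5 arrays, so this change has no exact size, and Slc7a11 needed the knock-down arrays to enter the test. Heart muscle genes of the pulmonary vein wall lay near background on all 8 arrays, with list levels of 5.43, 5.61 and 5.48 against 5.66 to 5.93.

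**Figure D5:**
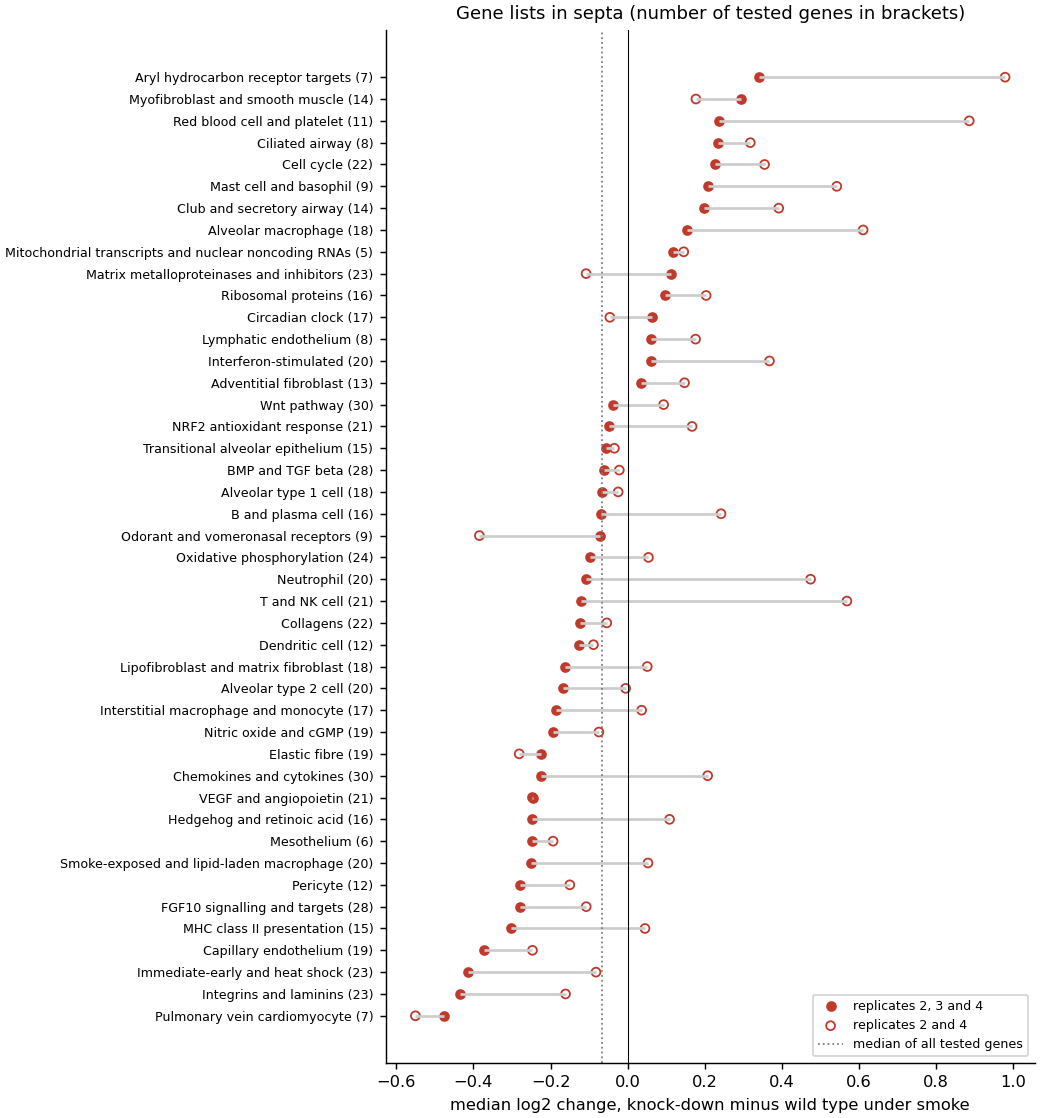
Median log2 change of each gene list with at least 5 tested genes, knock-down minus wild-type septa under smoke, from knock-down replicates 2, 3 and 4 (filled) and from replicates 2 and 4 (open); the dotted line is the median of all tested genes, and brackets give the number of tested genes. The open points of most lists, immune or not, lie to the right of the filled ones. T and NK cells lie at 0.57 against -0.12, and integrins and laminins at -0.16 against -0.44. The VEGF and angiopoietin list stays at -0.25.

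Vessels of the same groups gave a different count. With knock-down vessel replicate 5 left out for low correlation, 1903 of 17330 genes (11%) passed between the genotypes in smoke-exposed vessels. Of these 353 were higher (2.04%) and 1550 lower (8.94%; limma). Here too Xist was uneven, at 3.99, 13.34, 13.8 and 12.28 on knock-down and 4.75, 4.98, 5.35, 13.85 and 4.71 on wild-type arrays. What part of the count goes with Xist was not tested. In septa the 353 genes had a median change of 0.16 and the 1550 a median of -0.17, beside vessel medians of 2.28 and -2.10. The septa change was positive for 58.9% of the 353, against 45.2% of all genes. It was negative for 68.3% of the 1550, against 54.8% of all genes. Over both directions 54.9% of all genes had the same sign in septa and vessel.

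The difference between the septa and the vessel effect was itself tested and passed for 1 gene, Lsmem2 (0.00577% of genes tested), while 2125 (12.3%) had an unadjusted p under 0.05. Lsmem2 read 8.20, 11.92 and 8.88 on knock-down septa arrays and 8.06, 7.13, 7.80, 7.63 and 7.87 on wild-type septa arrays. In vessels it read 5.54, 7.21, 5.64 and 7.28 on knock-down arrays and 8.89, 8.56, 9.06, 8.98 and 8.79 on wild-type arrays. Thus knock-down arrays lay above wild type in septa and below it in vessels, by 1.97 and -2.44, and the difference was 4.40 ± 0.84 (SE; limma adjusted p = 0.0449). Without knock-down septa replicate 3 it was 3.28 and did not pass (limma adjusted p = 0.790). It also missed the threshold without wild-type septa replicate 1, 2, 3 or 5 (limma adjusted p from 0.0543 to 0.136), and with a replicate block (limma adjusted p = 0.0801).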

How the data were processed

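The authors' deposited values were log2 intensities of 62976 features on 68 one-colour arrays; limma is named in the submitters' processing notes, with no settings. The arrays' percentiles agreed within 0.00352, so no further normalisation was applied. Features with 1 gene name (43941) gave 24306 genes, each by its brightest probe over all arrays. Genes above percentile 40 on at least 3 of the 8 compared arrays were tested with limma 3.58.1 (R 4.3.3; lmFit, eBayes, two-sided, Benjamini-Hochberg threshold 0.05) on 32 septa arrays in 7 groups, without knock-down smoke replicates 1 and 5; septa and vessel were compared in a fit of 65 arrays. No sample was imputed, and 6 genes with missing values were left out. Named genes were the 12 per direction of smallest p without overlap, a change of at least 1 and a higher group above percentile 40; predicted, clone and Rik names were passed over. List members with an unadjusted p under 0.05 and a fixed set of Fgf10 pathway genes were also named. The members and lists were chosen with earlier results of these data known. The test was tried on simulated data. The number of arrays limits the precision. Alternatives covered array set, filter, probe choice, centring, weights, block, labels, Xist and each array left out. The sources used here give no slide or scan batch.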

Additional observations from a re-analysis of the deposited data

Results flagged for a closer look

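Single arrays stood apart from the rest of their group by Dixon's criterion in 6 of 70 group tests, where chance flags about 1 in 20 groups. All 6 lay in the wild-type smoke or knock-down room air groups. Knock-down smoke replicate 3 is not among them, although it read 4.77 for Arhgef10l, with the other knock-down arrays at 12.18 and 12.19. A gap of that size went unflagged, so the absence of this array says nothing about how far it stood apart. Cyp3a13 read 5.07 on 1 wild-type smoke array, with the next at 4.37, and 3.64 on 1 knock-down room air array, with the next at 5.13. Clec11a read 4.43 on 1 wild-type smoke array, with the next at 5.71. Sra1 read 8.71 on 1 wild-type smoke array, with the next at 9.06. Epb41l5 read 11.55 on 1 knock-down room air array, with the next at 12.14. Xist read 14.55 on 1 of 4 knock-down room air arrays, with the next at 5.25. The knock-down effect on Lsmem2 under smoke differed between septa and vessel by 4.40 (limma adjusted p = 0.0449).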

How the results depend on the processing

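No gene passed between the genotypes in septa under any alternative except with all 5 knock-down arrays (1068) and without knock-down replicate 2 (1, Phgr1), so leaving out 1 array gave 0 to 1; the difference between smoke and room air gave 0 throughout. The septa and vessel difference gave 631 with all 5 arrays, 6 with no filter, 1248 with array weights, 0 with the replicate block and 0 to 2 without 1 array; 0 remained without knock-down replicate 3 or wild-type replicate 1, 2, 3 or 5. Those left-out arrays for both difference tests were chosen after seeing the data. Same-numbered arrays did not deviate together (r = 0.091, -0.165 and 0.044), and the block left 0 genes between genotypes in septa (950 at an unadjusted p under 0.05). The Fgf10 probes lost their unadjusted calls in the exact permutation test (-1.65, p = 0.25; 0.90, p = 0.0893); with all 5 arrays the second probe was at 1.34 and the dimmest at 0.53 (limma unadjusted p = 0.179). Signs turned with all 5 arrays for Sra1 (-0.57), Fgfr2 (-0.28), Spry4 (0.69) and Nos2 (0.53), with the block for Nos2 (0.033), with the fourth wild-type array as knock-down for Spry1 (0.046), Spry2 (0.016), Spry4 (0.39) and Nos2 (0.33), and with an Xist covariate for Spry2 (0.042), Nos2 (0.18) and Xist (-1.16). With 1 array left out Fgfr2 ran from -0.045 (without knock-down replicate 3) to 1.68, Spry2 from -0.52 to 0.062 (without knock-down replicate 3), Spry4 from -0.62 to 0.18 (above 0 without wild-type replicate 4 or 5) and Nos2 from -0.63 to 0.077 (above 0 without knock-down replicate 2 or wild-type replicate 4). The Xist covariate was a cut of Xist itself at 9.5, so the loss of the Xist change with it was fixed in advance. That covariate left 0 genes past the threshold and 1266 at an unadjusted p under 0.05, and array weights left 0 and 1476. The cause of each other shift was not tested.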
